A study of Ovis aries with 15 samples.

Results

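The kidney cortex of fetal sheep was compared between hypoxic and normoxic fetuses across both drug arms of the study, with drug held as a covariate. All 15 arrays of the series entered, 8 from hypoxic and 7 from normoxic fetuses, chosen by the exposure named in each sample's title. Fetuses at 125 ± 3 days of gestation (the study's stated mean and spread) carried chronic catheters, in the normoxic groups as well as the hypoxic ones. They went through 30 min of hypoxia, produced by lowering the oxygen the ewe breathed, or 30 min of normoxia. Ketamine, an anaesthetic that blocks the NMDA type of glutamate receptor, was given into a fetal vein at 3 mg/kg 10 min beforehand, and the vehicle was saline. The groups were normoxia with vehicle (n = 3), normoxia with ketamine (n = 4), hypoxia with vehicle (n = 4) and hypoxia with ketamine (n = 4). The cortex was frozen 24 h after the exposure began, so each array reads 1 fetus at 1 time, a day after a brief exposure. Whole cortex was used, and fewer cells of a type and less RNA per cell cannot be told apart in it.

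The arrays were Agilent designs for sheep with a single dye, and each took the RNA of 1 fetus. Of 15008 probes, the 12927 that the scanner software called well above background on at least 3 arrays were tested. Signals are given after division by each array's 75th percentile and multiplication by 1 constant, the geometric mean of the 15 percentiles, and are called scaled signals below. Where a group's signals are listed, they stand in the order of the replicate numbers. Differences are given as log2 changes, hypoxia minus normoxia. A gene or probe is said to have risen or fallen where limma gave it an unadjusted p no greater than 0.05, which is the study's threshold; adjusted p is the Benjamini-Hochberg value over all 12927 probes. Array names cover 11% of the probes, and 876 genes with a name were tested, each by the probe with the highest mean signal. Signals of different probes are not comparable as levels. SLC34A1 (a phosphate transporter of the proximal tubule) and WT1 (a podocyte transcription factor) were well above background on all 15 arrays. Between 75.7% and 85.3% of probes were well above background on the hypoxic arrays and between 81.0% and 84.0% on the normoxic arrays. The 75.7% was in hypoxia ketamine replicate 4. Its detection limit, the lowest signal called well above background before scaling, was 18.7, against at most 10.9 on any other array.

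Low oxygen reaches gene expression through the hypoxia-inducible factors, which switch on glucose transport, glycolysis and other genes, and its aftermath can involve inflammation. In inflamed tissue, tumour necrosis factor and interleukins activate the NF-kB pathway, endothelial selectins and adhesion molecules capture leukocytes, and macrophages carry Fc receptors and the costimulatory molecule CD86. The fetal kidney cortex is at the same time a growing tissue, in which insulin-like growth factor 1, angiopoietin and the TGF-beta and BMP pathways act on nephrons, vessels and the interstitium.

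Probe sequences are printed for 4 genes of the results that were each read by 2 probes of 1 transcript record, and for the unnamed probe with the smallest p among those that rose, since these show what the arrays measured. They are the 60-base probes of the array design, 5′ to 3′, and capitals mark the bases that both probes of a gene share, so that such probes are not independent readings. The CD86 probes share no stretch of bases. Positions in the genome were not determined here.
CD86, first probe: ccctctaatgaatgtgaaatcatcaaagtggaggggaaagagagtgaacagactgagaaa
CD86, second probe: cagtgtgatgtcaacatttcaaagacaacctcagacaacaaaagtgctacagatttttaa
ITGA4, first probe: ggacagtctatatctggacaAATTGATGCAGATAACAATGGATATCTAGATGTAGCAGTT
ITGA4, second probe: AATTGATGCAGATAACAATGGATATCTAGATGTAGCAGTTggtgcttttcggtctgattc
SLC7A8, first probe: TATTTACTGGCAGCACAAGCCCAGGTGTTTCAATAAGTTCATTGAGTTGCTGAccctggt
SLC7A8, second probe: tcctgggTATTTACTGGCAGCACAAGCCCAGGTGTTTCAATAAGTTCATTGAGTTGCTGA
KDR, first probe: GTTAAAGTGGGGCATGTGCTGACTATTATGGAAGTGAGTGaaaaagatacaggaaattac
KDR, second probe: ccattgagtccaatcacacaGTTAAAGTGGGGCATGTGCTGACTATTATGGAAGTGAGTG
A_70_P064106, unnamed: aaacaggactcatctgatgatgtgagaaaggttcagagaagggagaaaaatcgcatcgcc
The CD86 probes rose by 1.59 and 1.5 on the log2 scale. The overlapping ITGA4 probes share 40 bases and fell by 1.19 and 1.48, the SLC7A8 probes share 53 bases and fell by 1.57 and 1.49, and the KDR probes share 40 bases and fell by 0.54 and 0.48.

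More probes fell than rose a day after hypoxia, and those that rose did so by more. At the unadjusted threshold 2564 probes passed (19.8% of those tested): 1012 rose (7.83%) and 1552 fell (12%), against 646 probes of either sign that the threshold passes by chance. After adjustment 230 probes passed (1.78%), of which 69 were higher (0.534%) and 161 lower (1.25%) in the hypoxic fetuses. The 69 higher probes had a median log2 change of 1.38, or 2.6-fold, with a range of 1.33-fold to 46.3-fold. The 161 lower probes had a median of -0.55, or 1.46-fold, with a range of 1.19-fold to 6.38-fold. All 8 hypoxic arrays lay above all 7 normoxic arrays for 47 probes (0.364% of those tested) and below them for 76 (0.588%), and 26 of the 69 and 59 of the 161 were among these. Among the 876 named genes 101 rose (11.5%) and 83 fell (9.47%), and 9 (1.03%) and 17 (1.94%) passed the adjusted threshold. The median log2 change over all tested probes was -0.04.

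The number of adjusted calls moved with each array left out. It was 54, 70 and 68 without normoxia vehicle replicates 1, 2 and 3, and 123, 114, 86 and 155 without normoxia ketamine replicates 1, 2, 3 and 4. It was 365, 307, 154 and 172 without hypoxia vehicle replicates 1, 2, 3 and 4, and 100, 106, 480 and 219 without hypoxia ketamine replicates 1, 2, 3 and 4. Higher probes numbered 12 to 168 and lower probes 41 to 312 over these fits. With limma's normexp background correction in place of the scanner's own, 19 probes were higher and 24 lower, so that the higher share of adjusted calls was 44.2% in place of 30%. The arrays lay on 2 slides that each held all 4 groups, and with slide as a block 76 probes were higher and 147 lower. Nothing in the labels ties fetuses to litters or ewes, so p-values measure the spread between these 15 fetuses.

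Insulin-like growth factor 1, the growth factor through which growth hormone acts on many tissues, was lower in every hypoxic fetus than in any normoxic one. The scaled IGF1 signal was 148, 115 and 195 in the 3 normoxic vehicle fetuses, 160, 115, 117 and 115 in the 4 normoxic ketamine fetuses, 78.1, 79.4, 54.5 and 60.1 in the 4 hypoxic vehicle fetuses and 59.9, 84.1, 89.1 and 82.9 in the 4 hypoxic ketamine fetuses. The groups did not overlap: the highest hypoxic signal was 89.1, in hypoxia ketamine replicate 3, and the lowest normoxic one was 115. IGF1 fell by 0.90 on the log2 scale, or 1.86-fold (SE 0.15, adjusted p = 0.0121). The log2 change was -1.15 with vehicle and -0.68 with ketamine, and it was -0.48 with normexp background correction (adjusted p = 0.19).

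Over the 12 measured genes of the insulin-like growth factor axis 2 rose, IGFBP1 and IGF1R (16.7%, beside 11.5% of named genes). In the same list 3 fell, IGF1, IGFBP5 and GHR (25%, beside 9.47%), and the median log2 change was 0.00 beside 0.00 over all named genes. IGFBP1, a secreted protein that binds the growth factor and is a known target of hypoxia-inducible factors, had signals of 747, 67.3, 4343 and 89.7 in the hypoxic vehicle fetuses and 853, 6828, 40.9 and 279 in the hypoxic ketamine fetuses, against 6.74 to 85.4 (median 17.6) over the normoxic fetuses. Hypoxia vehicle replicate 3 and hypoxia ketamine replicate 2 were highest, and 6 of the 8 hypoxic fetuses lay above all normoxic ones. Its log2 change was 4.35 ± 1.06 (SE), adjusted p = 0.0516, and its other probes gave 3.58 and 4.68. The receptor IGF1R was higher by 0.23 (adjusted p = 0.244), a call that 10 of the 15 omissions of 1 array ended, with log2 changes of 0.16 to 0.25 in those fits, and that the authors' value table (0.19, adjusted p = 0.285) and array weights (0.15, adjusted p = 0.445) ended too. The other probes of IGF1R, at -0.13 and 0.11, did not pass the threshold. The binding protein IGFBP5 was at -0.62 by 1 probe and at 0.25 by the other, and the growth hormone receptor GHR at -0.51 (adjusted p = 0.25).

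Of 19 measured angiogenic growth factors and receptors 2 fell, ANGPT1 and KDR (10.5%, beside 9.47% of named genes), and none rose, with a median of -0.16, so the share that fell was near that of all named genes. This count depends on the probe taken for FGF10. It was at -0.35 by the probe used (adjusted p = 0.279) and was not called, while its other probes fell, by 0.50, 0.66 and 0.69. NTN4, a laminin-related protein of basement membranes that is not in that list, had signals of 1980 to 3811 (median 2988) in the hypoxic fetuses and 4810 to 6202 (median 5337) in the normoxic ones. Hypoxia vehicle replicate 3 and hypoxia ketamine replicate 2 were lowest, at 1980 and 2057, and the groups did not overlap. NTN4 fell 1.88-fold (log2 change -0.91 ± 0.14 (SE), adjusted p = 0.00972), and its second probe fell by 0.85. ANGPT1, the ligand that stabilises vessels through the receptor TIE2, had signals of 231 to 487 (median 344) against 486 to 864 (median 641), and fell by 0.86 (SE 0.19, adjusted p = 0.0403), while its second probe fell by 0.97. Its groups met at 487 and 486, in hypoxia ketamine replicate 4 and normoxia ketamine replicate 3. KDR, the main VEGF receptor of endothelial cells, was read by 4 probes, which fell by 0.54, 0.48, 0.38 and 0.37, and the first 2 of these passed adjustment. AGGF1, an angiogenic factor that is not in the list either, had signals of 797 to 1180 (median 1129) against 1238 to 1702 (median 1444), with no overlap, and fell by 0.42 (SE 0.09, adjusted p = 0.0303). VEGFA was at -0.10 (adjusted p = 0.825).

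ITGA4, the alpha 4 integrin subunit by which leukocytes and other cells bind VCAM1 and fibronectin, fell further than most named genes. Its signal was 89.5, 92.1 and 80.1 in the 3 normoxic vehicle fetuses, 78.4, 261, 71.5 and 98.2 in the 4 normoxic ketamine fetuses, 37.6, 45.9, 45.4 and 25.2 in the 4 hypoxic vehicle fetuses and 17.3, 33.4, 58.4 and 38 in the 4 hypoxic ketamine fetuses. Normoxia ketamine replicate 2 stood apart at 261, hypoxia ketamine replicate 1 was lowest at 17.3, and the exposure groups did not overlap. The fall was 2.79-fold (log2 change -1.48 ± 0.30 (SE), adjusted p = 0.0267), with -1.22 in the vehicle arm and -1.70 in the ketamine arm. With normexp background correction it was -0.60 (adjusted p = 0.275). CLMP, a junctional adhesion molecule, had signals of 32.1 to 82.6 (median 60.4) against 74.6 to 117 (median 99.4) and fell by 0.77 (SE 0.18, adjusted p = 0.0408), and under normexp its log2 change was -0.30 (adjusted p = 0.515).

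Over the 16 measured tubule transport genes 2 rose, SLC15A1 and AQP3 (12.5%, beside 11.5% of named genes), and 1 fell, SLC4A4 (6.25%, beside 9.47%), with a median of 0.01, so both shares were near those of all named genes. SLC7A8, NHERF1 and ATP6V1B2, described with them, are not in that list. SLC7A8, a carrier of neutral amino acids in the proximal tubule, had signals of 20.5, 37.3, 6.19 and 16.6 in the hypoxic vehicle fetuses and 11.9, 19.3, 37.9 and 60.4 in the hypoxic ketamine fetuses, against 48.3 to 83.1 (median 65.5) in normoxia. Hypoxia ketamine replicate 4 lay inside the normoxic range and the other 7 hypoxic fetuses below it. It fell 2.97-fold (log2 change -1.57 ± 0.38 (SE), adjusted p = 0.0497), by 0.81 in the authors' own value table and by 0.47 with normexp (adjusted p = 0.406). SLC4A4, the basolateral sodium bicarbonate cotransporter, had signals of 41.1 to 67.4 (median 54.2) against 68.7 to 96.9 (median 81.1), which did not overlap, and fell by 0.58 (SE 0.11, adjusted p = 0.0257), but by 0.20 with normexp (adjusted p = 0.768). NHERF1, the scaffold that holds the phosphate transporter in the brush border, fell by 0.60 (SE 0.11, adjusted p = 0.0168), with signals of 708 to 1258 (median 959) against 1240 to 1734 (median 1435). ATP6V1B2, a subunit of the proton pump of vesicles and acid-secreting cells, fell by 0.50 (SE 0.11, adjusted p = 0.0403). SLC15A1, a peptide carrier best known from the intestine, went the other way: 117, 32.1, 37 and 101 in the hypoxic vehicle fetuses and 77.5, 270, 38 and 44.7 in the hypoxic ketamine fetuses against 8.49 to 28.7 (median 15.5) in normoxia, with no overlap. Its log2 change was 1.97 ± 0.44 (SE), adjusted p = 0.0403, 1.11 in the authors' value table and 0.91 with normexp. The water channel AQP3 rose by 0.48 (adjusted p = 0.108).

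Some genes of the matrix and of TGF-beta and BMP signalling fell, by less. COL3A1, fibrillar collagen of the interstitium, had signals of 325 to 445 (median 405) in hypoxia and 486 to 652 (median 577) in normoxia. All 8 hypoxic fetuses were below all 7 normoxic ones, and hypoxia vehicle replicate 1 was lowest at 325. COL3A1 fell 1.44-fold (log2 change -0.53 ± 0.09 (SE), adjusted p = 0.0149), and a probe of another transcript record by 0.29. Of 12 measured matrix and fibroblast genes 3 fell (25%, beside 9.47% of named genes): COL3A1, COL1A2 (-0.39, adjusted p = 0.0757) and the gelatinase MMP2 (-0.34, adjusted p = 0.24). The inhibitors of such proteases TIMP1 and TIMP2 rose, each by 0.35 (adjusted p = 0.162 and adjusted p = 0.183), which is 16.7% of the list beside 11.5% of named genes, so it held changes of both signs, with a median of -0.10. Without hypoxia ketamine replicate 3, 5 of the 12 fell. The TIMP1 call was lost in the authors' value table (0.28, adjusted p = 0.241), and the TIMP2 call there (0.24, adjusted p = 0.231), with normexp (0.24, adjusted p = 0.443) and on omission of any 1 of hypoxia ketamine replicates 1 and 4, normoxia ketamine replicate 3 and normoxia vehicle replicate 2 (0.27 to 0.32).

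Of 26 measured genes of TGF-beta and BMP signalling, which patterns the nephron and drives fibroblasts, 9 fell (34.6%) and none rose, beside 9.47% and 11.5% of named genes, with a median log2 change of -0.21 beside 0.00. SMAD5, a BMP signal carrier, had signals of 20.6 to 36.2 (median 27.2) against 30 to 52.2 (median 42.7) and fell by 0.60 (SE 0.14, adjusted p = 0.0488), but its change was -0.28 in the authors' value table (adjusted p = 0.0873) and -0.09 with normexp (adjusted p = 0.927). SMAD2, a carrier of TGF-beta signals, and SMAD4, the partner common to both branches, each fell by 0.28 (adjusted p = 0.0898 and adjusted p = 0.0815), and 7 of 8 hypoxic fetuses were below all normoxic ones for each. SNAI2, a repressor of epithelial genes, had signals of 64.6 to 341 (median 188) against 235 to 347 (median 309) and was at -0.83 (adjusted p = 0.0968). The other 5 that fell, named after their values were seen, were the ligand TGFB2 (-0.69), the receptors TGFBR1 (-0.31) and ACVR1 (-0.26), the activin antagonist FST (-0.62) and SNAI1 (-0.22), while TGFB1 was at -0.02 (adjusted p = 0.967). With normexp 5 of the 26 fell.

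KITLG, the ligand of the KIT receptor, fell by 0.70 (SE 0.17, adjusted p = 0.0488) by 1 probe and by 0.50 by the other probe of that record. Probes of a second KITLG record gave 0.13 and 0.15, so that the median over its 4 probes was -0.19. PSIP1, a chromatin-bound coactivator, had signals of 2343 to 4078 (median 3407) against 4278 to 5710 (median 4636) without overlap, and fell by 0.59 (SE 0.13, adjusted p = 0.0357). UBQLN1, a shuttle of proteins to the proteasome, fell by 0.54 (SE 0.12, adjusted p = 0.0413). RPA1, which binds single-stranded DNA, and YEATS4, a reader of histone marks, also passed adjustment, at -0.38 and -0.32, and are named here after their values were seen. Among 9 cell cycle genes 3 fell (33.3%, beside 9.47% of named genes): the kinases CDK2 (-0.28, adjusted p = 0.229) and CDK4 (-0.24, adjusted p = 0.178) and the inhibitor CDKN1B (-0.52, adjusted p = 0.133). The CDK2 call was lost in 8 of the 15 fits without 1 array (-0.29 to -0.25), and the CDK4 call without hypoxia ketamine replicate 2 or normoxia ketamine replicate 4 (-0.20 in each). CDKN1B was at -0.29 with normexp (adjusted p = 0.569), and CCND3 was the 1 gene of the 9 that rose (11.1%, beside 11.5%; 0.45, adjusted p = 0.169), a call lost without normoxia vehicle replicate 2 (0.34, adjusted p = 0.327).

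**Figure D1:**
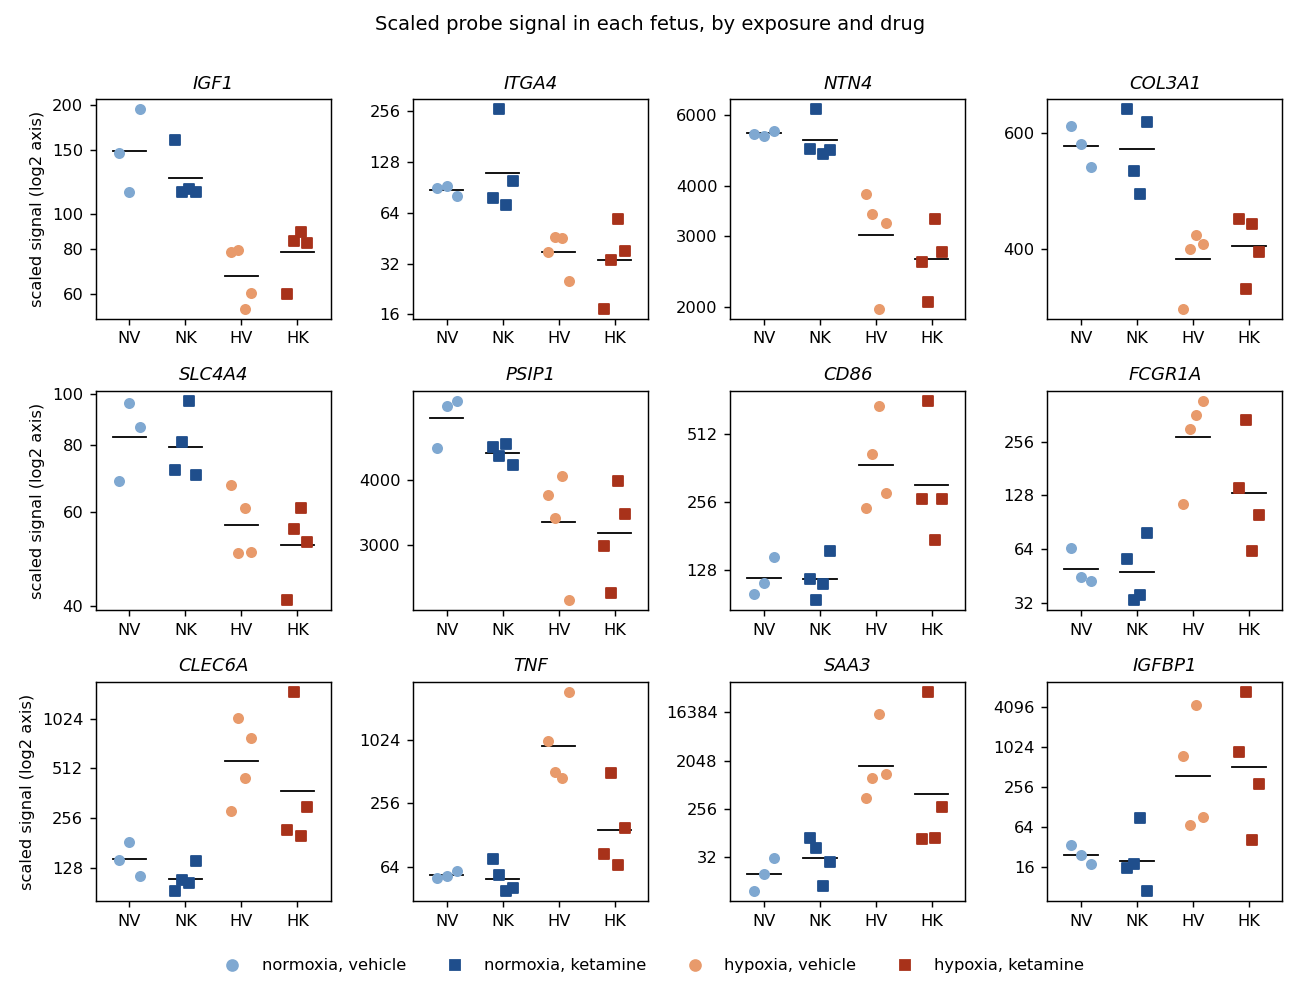
Scaled probe signal of 12 genes in each of the 15 fetuses, on log2 axes, for normoxia with vehicle (NV, n = 3), normoxia with ketamine (NK, n = 4), hypoxia with vehicle (HV, n = 4) and hypoxia with ketamine (HK, n = 4). Points are fetuses and lines are geometric means. IGF1, ITGA4, NTN4, COL3A1, SLC4A4 and PSIP1 were lower in all 8 hypoxic fetuses than in all 7 normoxic ones, and CD86 and CLEC6A were higher in all 8.

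Receptors of macrophages and other myeloid cells were higher after hypoxia. CD86, the costimulatory ligand of antigen-presenting cells, had signals of 101, 112 and 147 in the 3 normoxic vehicle fetuses, 117, 94.5, 111 and 155 in the 4 normoxic ketamine fetuses, 242, 418, 678 and 280 in the 4 hypoxic vehicle fetuses and 263, 718, 175 and 264 in the 4 hypoxic ketamine fetuses. All hypoxic fetuses were above all normoxic ones, with hypoxia vehicle replicate 3 and hypoxia ketamine replicate 2 highest and hypoxia ketamine replicate 3 lowest. CD86 rose 2.84-fold (log2 change 1.5 ± 0.28 (SE), adjusted p = 0.0202), by 1.65 with vehicle and 1.38 with ketamine. FCGR1A, the high-affinity receptor for immunoglobulin G, had signals of 65.3, 44.8 and 42.2 in the 3 normoxic vehicle fetuses, 56.7, 33.2, 35.3 and 78.4 in the 4 normoxic ketamine fetuses, 115, 302, 360 and 433 in the 4 hypoxic vehicle fetuses and 141, 339, 62.7 and 100 in the 4 hypoxic ketamine fetuses. Hypoxia ketamine replicate 3, at 62.7, lay inside the normoxic range, which reached 78.4, and the other 7 hypoxic fetuses lay above it. FCGR1A rose 3.78-fold (log2 change 1.92 ± 0.38 (SE), adjusted p = 0.0257), and by 1.23 with normexp (adjusted p = 0.0275). CLEC6A, a myeloid lectin that recognises fungal sugars, had signals of 198 to 1486 (median 374) against 91.8 to 184 (median 114) with no overlap and rose by 1.86 (SE 0.39, adjusted p = 0.032). FCER1G, the signalling chain that Fc receptors and such lectins share, rose by 1.11 (SE 0.26, adjusted p = 0.044). PLAUR, the urokinase receptor of activated leukocytes, had signals of 21.2 to 136 (median 71.6) against 11.7 to 33.3 (median 16.5) and rose by 1.72 (SE 0.40, adjusted p = 0.0461), by 0.88 in the authors' value table and by 0.71 with normexp.

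Of 8 measured monocyte and macrophage markers 5 rose and none fell, against 11.5% and 9.47% of named genes, and the median log2 change was 0.99. They were CD86, FCGR1A, FCER1G, the inhibitory receptor FCGR2B (1.94, adjusted p = 0.0502, 1.22 in the authors' value table and 0.98 with normexp) and the endotoxin coreceptor CD14 (0.59, adjusted p = 0.161), the last of which is named after its value was seen. The mean log2 shift of all 8 markers from the normoxic mean was 0.33 to 2.30 in hypoxic fetuses and -0.23 to 0.29 in normoxic ones. The ranges did not overlap, but 0.33 and 0.29 lay close. The 8 include ITGAM (0.85, adjusted p = 0.502), which was well above background on 3 arrays, the fewest that the filter allowed. The summed scaled signal of all probes of these markers was 3024 to 9200 (median 4144) in hypoxia and 2150 to 2793 (median 2305) in normoxia. Neutrophil and granule genes moved with them in part of the fetuses. BAC5, an antimicrobial cathelicidin of neutrophil granules, had signals of 658, 9724, 50472 and 1037 in the hypoxic vehicle fetuses and 1062, 22766, 1593 and 14019 in the hypoxic ketamine fetuses, against 326 to 3239 (median 1120) in normoxia. Among hypoxic fetuses, vehicle replicates 2 and 3 were high, as were ketamine replicates 2 and 4, and the other 4 hypoxic fetuses lay inside the normoxic range. BAC5 was at 2.2 (adjusted p = 0.213) and the cathelicidin CATHL3 at 2.43 (adjusted p = 0.159), and each of 7 arrays left out alone ended the BAC5 call (1.73 to 2.11). Without the 3 arrays with placental transcripts, an omission described further on, both calls were lost, at 1.45 for BAC5 (adjusted p = 0.533) and 1.57 for CATHL3 (adjusted p = 0.464). The summed signal of the 3 measured neutrophil genes was 1901 to 134112 (median 16116) in hypoxia and 840 to 8959 (median 2972) in normoxia. T and NK lymphocyte markers summed to 954 to 3612 (median 1702) against 1152 to 1644 (median 1388), and 2 of 7 rose, CD5 (0.89, adjusted p = 0.057) and IL2RA (1.35, adjusted p = 0.077), which is 28.6% beside 11.5% of named genes. None of the others passed the threshold: CD3D was at 0.70 (adjusted p = 0.321), CD3E at 0.53, LCK at 0.32, CD40LG at 0.29 and CD247 at -0.42 (adjusted p = 0.301). IL2RA was at 0.83 in the authors' value table and 0.74 with normexp. The part of these cell types in the other changes was not tested.

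Tumour necrosis factor, the cytokine at the head of the NF-kB response, was the named cytokine that passed adjustment. TNF signals were 50.9, 53.6 and 58.8 in the 3 normoxic vehicle fetuses, 76.2, 54.2, 38 and 40.6 in the 4 normoxic ketamine fetuses, 996, 510, 449 and 2862 in the 4 hypoxic vehicle fetuses and 84.9, 498, 67.2 and 150 in the 4 hypoxic ketamine fetuses. All 4 hypoxic vehicle fetuses and hypoxia ketamine replicate 2 were at 449 or above, whereas hypoxia ketamine replicate 3, at 67.2, lay inside the normoxic range of 38 to 76.2. TNF rose 6.43-fold (log2 change 2.68 ± 0.55 (SE), adjusted p = 0.0289), by 4.05 with vehicle and 1.52 with ketamine. The difference between the arms was -2.53 ± 0.91 (SE), which passed the unadjusted threshold but had an adjusted p of 0.989. Interleukin 6, which drives the acute-phase response, was not well above background in any normoxic fetus and was so in 5 of 8 hypoxic ones, with signals of 2933, 11.5, 12.6 and 9889 in the hypoxic vehicle fetuses and 22.9, 72.6, 12.1 and 4.57 in the hypoxic ketamine fetuses. Hypoxia vehicle replicates 1 and 4 stood far above the rest. Against the detection limit of the normoxic arrays, taken as the lowest signal called well above background on each or the probe's own signal if higher, IL6 was at least 7.1-fold higher (adjusted p = 0.127), and the call was lost with normexp (1.72, adjusted p = 0.423).

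Of 15 measured cytokines and chemokines 10 rose (66.7%) and none fell, beside 11.5% and 9.47% of named genes, with a median log2 change of 1.57, and 14 were higher in hypoxia. As in every list, a gene that was not well above background in normoxia was measured only if enough hypoxic arrays showed it. IL6 entered in this way, and IL7, also among the 10, was well above background on 4 arrays. With only probes well above background on all 15 arrays, 6 rose. IL1B, the inflammasome cytokine, had signals of 2336, 261, 132 and 1437 in the hypoxic vehicle fetuses and 62.2, 206, 79.2 and 61.4 in the hypoxic ketamine fetuses, against 42.2 to 55.5 (median 51.2) in normoxia. All 8 were above all 7, though hypoxia ketamine replicates 1 and 4 by little, and the log2 change was 2.12 (adjusted p = 0.0832). IL1RN, the natural antagonist of the interleukin 1 receptor, rose by 2.57 (adjusted p = 0.0665), by 1.71 in the authors' value table and 1.45 with normexp, and IL18 by 0.58 (adjusted p = 0.0665). Another IL18 probe, well above background on 6 arrays, was at -0.33 (adjusted p = 0.596). CXCL10, an interferon-induced chemokine for T cells, had signals of 520 to 132300 (median 1538) in hypoxia and 127 to 944 (median 214) in normoxia, and rose by 3.24 (adjusted p = 0.1). The mean shift of the 15 genes was 0.57 to 3.89 in hypoxic fetuses and -0.27 to 0.29 in normoxic ones, with the highest value in hypoxia vehicle replicate 4. Of 5 measured cytokine receptors 3 rose (60%, beside 11.5% of named genes): IFNAR1 (0.45, adjusted p = 0.0834), IFNAR2 (0.90, adjusted p = 0.194) and TNFRSF1A (0.34, adjusted p = 0.231). The other 2, IL13RA1 (-0.31) and CXCR4 (-0.24), were lower without passing the threshold. Omitting hypoxia ketamine replicate 2 or normoxia vehicle replicates 1 or 3 ended the IFNAR2 call (0.75 to 0.85). Without the 2 arrays farthest from the rest, hypoxia vehicle replicate 4 and hypoxia ketamine replicate 2, IFNAR2 was at 0.43 (adjusted p = 0.152) and CXCL10 at 2.0 (adjusted p = 0.129), and the TNFRSF1A call was lost (0.18, adjusted p = 0.483). Without the 3 arrays with placental transcripts the IFNAR2 call was lost (0.81, adjusted p = 0.405), as was that of TNFRSF1A (0.22, adjusted p = 0.562). Single omissions of 9 arrays also ended the TNFRSF1A call (0.26 to 0.35), as did the replicate block (0.32, adjusted p = 0.315).

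Of 12 measured genes of the toll-like receptor and NF-kB pathway 7 rose (58.3%) and none fell, beside 11.5% and 9.47% of named genes, all 12 had log2 changes above 0, and the median was 0.42. NFKBIA, an inhibitor of NF-kB that is also its target, had signals of 33626, 10104, 9104 and 50224 in the hypoxic vehicle fetuses and 10067, 10936, 3588 and 4815 in the hypoxic ketamine fetuses against 2979 to 4007 (median 3605) in normoxia. Hypoxia vehicle replicates 1 and 4 were highest, hypoxia ketamine replicate 3 was inside the normoxic range, and the log2 change was 1.61 (adjusted p = 0.0619). NOD2, a sensor of bacterial cell walls, rose by 0.71 (adjusted p = 0.0847) by the brighter probe, with 0.39 in the authors' value table and 0.42 with normexp. A dimmer NOD2 probe gave 1.79 (adjusted p = 0.0121). It was well above background on 3 arrays, the fewest that the filter allowed, so most of its signals were not, and it is no separate support. TLR3, a receptor for double-stranded RNA, rose by 0.53 (adjusted p = 0.148) and the kinase IKBKB by 0.47 (adjusted p = 0.149). Without normoxia vehicle replicate 1, 4 of the 12 rose. Without the 2 arrays farthest from the rest 3 rose, and TLR3 was at 0.33 (adjusted p = 0.318). Without the 3 with placental transcripts 3 rose, TLR3 was at 0.42 (adjusted p = 0.389) and IKBKB at 0.44 (adjusted p = 0.346). Both of these omissions were chosen after the data were seen.

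Acute-phase genes, products of tissues under cytokine signalling, had some of the largest increases. SAA3, a serum amyloid, had signals of 7.44, 15.8 and 31.4 in the 3 normoxic vehicle fetuses, 73.6, 47.3, 9.48 and 26.9 in the 4 normoxic ketamine fetuses, 417, 982, 15386 and 1154 in the 4 hypoxic vehicle fetuses and 69.8, 38977, 74.3 and 286 in the 4 hypoxic ketamine fetuses. Hypoxia vehicle replicate 3 and hypoxia ketamine replicate 2 were highest, and hypoxia ketamine replicate 1 lay inside the normoxic range. SAA3 rose 38.3-fold (log2 change 5.26 ± 1.26 (SE), adjusted p = 0.0499). PTX3, a pentraxin that binds microbes, had signals of 883, 118, 244 and 2865 and 376, 1231, 14.4 and 20.5 in the hypoxic vehicle and ketamine fetuses against 8.35 to 43.6 (median 15) in normoxia, and rose by 3.76 (adjusted p = 0.0595), or 2.42 with normexp. Complement C3 rose by 0.93 (adjusted p = 0.151), but by 0.57 (adjusted p = 0.327) without the 2 arrays farthest from the rest. Together 3 of 5 acute-phase and complement genes rose (60%, beside 11.5% of named genes), with a median of 0.93.

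Adhesion molecules of activated endothelium rose as well. SELP, the selectin that endothelium and platelets release to the surface, had signals of 1096, 324, 225 and 4758 in the hypoxic vehicle fetuses and 426, 736, 31.3 and 33.7 in the hypoxic ketamine fetuses against 20.2 to 47.7 (median 26.6) in normoxia. Hypoxia ketamine replicates 3 and 4 lay inside the normoxic range and the other 6 at 225 or more, and the log2 change was 3.38 (adjusted p = 0.0516). ICAM1, the endothelial ligand of leukocyte integrins, rose by 1.79 (adjusted p = 0.118), and by 1.14 without the 2 arrays farthest from the rest, while the integrin chain ITGB2 rose by 0.83 (adjusted p = 0.235). The ITGB2 call was lost in 11 of the 15 fits without 1 array (0.62 to 0.85) and in the model of group means (0.82, adjusted p = 0.253). With ITGA4, 3 of the 8 measured genes of endothelial activation and leukocyte adhesion rose (37.5%, beside 11.5% of named genes) and 1 fell (12.5%, beside 9.47%), with a median of 0.72. Of 6 interferon-stimulated genes 2 rose (33.3%, beside 11.5% of named genes) and none fell, with a median of 1.94. Those that rose were the transcription factor IRF1 (2.65, adjusted p = 0.066) and the chaperone RTP4 (1.80, adjusted p = 0.149). IRF1 was above all normoxic fetuses in all 8 hypoxic ones, at 266 to 14006 (median 992) against 139 to 243 (median 185). ISG15, an interferon-induced ubiquitin-like protein, had signals of 1382 to 488926 (median 10614) in hypoxia and 1216 to 22280 (median 2486) in normoxia, so the groups overlapped widely (log2 change 2.08, adjusted p = 0.274). Without the 2 arrays farthest from the rest IRF1 was at 1.70 and RTP4 at 0.91, and without the 3 with placental transcripts RTP4 was at 1.45 (adjusted p = 0.346).

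Immediate early genes, the transcription factors that a stimulus induces first, rose in 3 of 7 cases (42.9%, beside 11.5% of named genes), with a median of 0.76. This count depends on the probes taken. FOS passed by the probe used but not by its other probes (1.27, 1.42 and 1.38). ZFP36 did not pass by the probe used (0.76) but rose by 1.68 by its other probe. JUNB had signals of 6010, 805, 422 and 4339 in the hypoxic vehicle fetuses and 575, 690, 241 and 231 in the hypoxic ketamine fetuses against 193 to 292 (median 237) in normoxia, with a log2 change of 1.72 (adjusted p = 0.109). MYC rose by 1.1 (adjusted p = 0.157), a call lost without the 2 arrays farthest from the rest (0.84, adjusted p = 0.328) and without the 3 with placental transcripts (1.02, adjusted p = 0.383). FOS was at 1.46 (adjusted p = 0.25), with 27965 and 20884 in hypoxia vehicle replicates 1 and 4 against at most 3002 in the other hypoxic fetuses. The FOS call was lost in 10 of the 15 fits without 1 array, those without either of these included, with log2 changes of 1.1 to 1.51, and also with quantile scaling (1.43, adjusted p = 0.234), with slide or replicate as a block (1.44, adjusted p = 0.268, and 1.37, adjusted p = 0.321) and without the drug term (1.56, adjusted p = 0.254).

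Of the hypoxia-inducible factors' targets 10 were measured, of which 4 rose (40%) and none fell, beside 11.5% and 9.47% of named genes, with a median of 0.26. Besides IGFBP1 they were the glucose transporters SLC2A1 (0.68, adjusted p = 0.0697) and SLC2A3 (1.15, adjusted p = 0.112) and lactate dehydrogenase A, LDHA (0.81, adjusted p = 0.11). SLC2A1 signals were 497 to 1698 (median 914) against 476 to 670 (median 573), with hypoxia vehicle replicates 1 and 3 highest, and SLC2A3 reached 54272 in hypoxia vehicle replicate 1 against a normoxic range of 4339 to 6988. EPO, the erythropoietin gene, was at -0.41 (adjusted p = 0.824), and VEGFA did not pass the test either. Of the 5 measured genes of the factors' own pathway 1 rose (20%, beside 11.5% of named genes). It was HIF3A (0.47, adjusted p = 0.127, and 0.34 with normexp, adjusted p = 0.423), while HIF1A was at 0.31 (adjusted p = 0.546).

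In the renin-angiotensin and vasoactive list 3 of 22 genes rose (13.6%, beside 11.5% of named genes) and 4 fell (18.2%, beside 9.47%), with a median of -0.16. CYP24A1, which inactivates vitamin D in the tubule, had signals of 846, 37.3, 40.9 and 210 in the hypoxic vehicle fetuses and 98.6, 196, 30.4 and 20.7 in the hypoxic ketamine fetuses, against 5.39 to 28.3 (median 9.35) in normoxia, where 3 of 7 arrays were well above background. Its log2 change was 2.84 (adjusted p = 0.0544), 1.54 in the authors' value table and 1.27 with normexp, and hypoxia ketamine replicate 4 alone lay inside the normoxic range. The other 2 that rose were PTGS1, a prostaglandin synthase (0.55, adjusted p = 0.173), and the adenosine receptor ADORA3 (0.79, adjusted p = 0.159). Of the 4 that fell 3 are receptors: the angiotensin receptor AGTR1 (-0.68, adjusted p = 0.117), the mineralocorticoid receptor NR3C2 (-0.41, adjusted p = 0.0651) and the glucocorticoid receptor NR3C1 (-0.40, adjusted p = 0.089). The other was HSD11B1, which regenerates active glucocorticoid, at -0.59 (adjusted p = 0.206), while renin was at -0.50 (adjusted p = 0.4). NR3C2 signals were 3985 to 6479 (median 5381) in hypoxia and 6463 to 7732 (median 6798) in normoxia, and NR3C1 was at -0.19 with normexp (adjusted p = 0.686). GHR, MMP2, PTGS1, ADORA3 and HSD11B1 fall outside the rule for named genes and are given because their counts are small.

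SERPINA14, a uterine serpin, rose by 3.01 (adjusted p = 0.0676), with signals of 325, 346 and 4136 in the 3 normoxic vehicle fetuses, 357, 4025, 385 and 398 in the 4 normoxic ketamine fetuses, 5596, 8050, 11180 and 9069 in the 4 hypoxic vehicle fetuses and 12961, 7516, 9471 and 382 in the 4 hypoxic ketamine fetuses. Its values separated into 6 fetuses at 325 to 398, hypoxia ketamine replicate 4 among them, and 9 at 4025 to 12961, normoxia vehicle replicate 3 and normoxia ketamine replicate 2 among them. PGFS, a prostaglandin F synthase, rose by 1.09 (SE 0.23, adjusted p = 0.0338) by 1 probe and was at 0.35 by a dimmer one (adjusted p = 0.849). Tubular injury markers rose in 4 of 7 cases (57.1%, beside 11.5% of named genes), IL18, TIMP1, TIMP2 and the trefoil peptide TFF3 (0.66, adjusted p = 0.12), with a median of 0.35. This is not a separate result, since IL18 was counted with the cytokines and TIMP1 and TIMP2 with the matrix genes. The TIMP1 and TIMP2 calls were lost in the authors' value table, as given above. Of 9 apoptosis genes 1 rose and 1 fell (11.1% each, near the shares of all named genes): MCL1 rose (0.72, adjusted p = 0.201) and BAX fell (-0.43, adjusted p = 0.0703). The MCL1 call was lost without hypoxia ketamine replicate 2, hypoxia vehicle replicate 1 or any 1 of the 3 normoxia vehicle arrays (0.62 to 0.67). Of 8 clock genes 1 rose and 1 fell (12.5% each, near those shares too): PER1 rose (0.77, adjusted p = 0.0772; 0.30 in the authors' value table and 0.34 with normexp, adjusted p = 0.491) and CLOCK fell (-0.45, adjusted p = 0.0502; -0.08 with normexp, adjusted p = 0.926). None of 17 ribosomal protein genes passed the test in either direction, and their mean shift was -0.16 to 0.24 in hypoxia and -0.08 to 0.11 in normoxia. Nor did any measured gene of oxidative phosphorylation (4 genes), antioxidant defence (3), chaperones (2), podocytes (2), erythroid cells (2), B cells (1) or steroid synthesis (1). Of 5 glutamate receptor genes 1 fell (20%, beside 9.47% of named genes), GRIA4 (-0.49, adjusted p = 0.241). GRIA4 was well above background on 4 of 8 hypoxic arrays and was at 0.03 with normexp (adjusted p = 0.972). Its call was lost in 10 of the 15 fits without 1 array (-0.50 to -0.39) and with slide or replicate as a block (-0.47 in each).

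**Figure D2:**
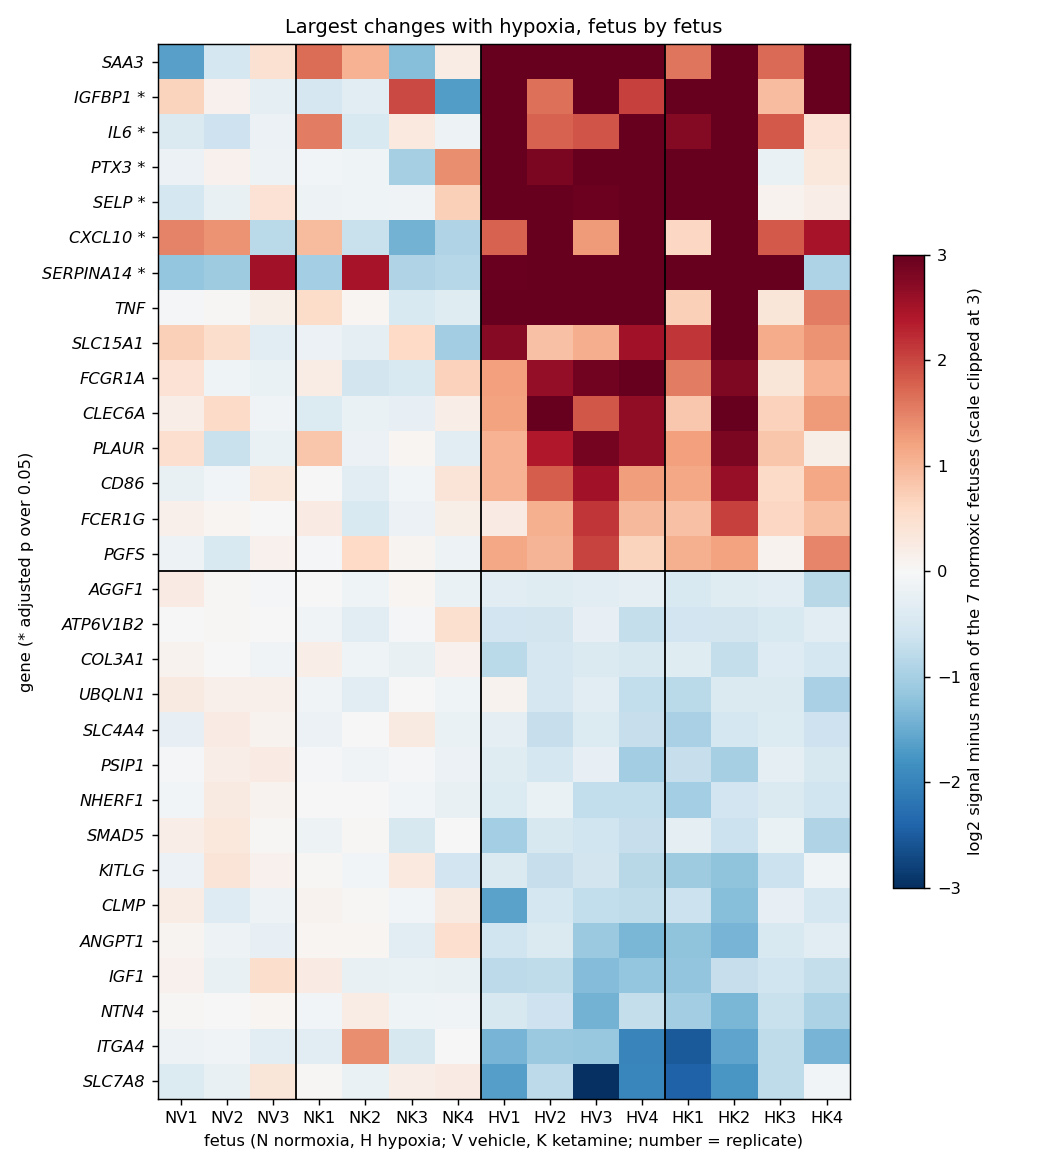
Log2 signal minus the mean of the 7 normoxic fetuses, as colour from -3 to 3 with larger values clipped, for the 15 named genes with the largest increases and the 15 with the largest decreases, in 15 columns of fetuses. Names marked with a star had an adjusted p over 0.05. The increases differ widely between hypoxic fetuses, and the decreases are smaller and more even.

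Transcripts of placenta were present in some arrays and none of the 5 measured placental genes passed the test. The 3 pregnancy-associated glycoproteins PAG6, PAG9 and PAG11 and the placental lactogen record LOC443319 were high in normoxia ketamine replicates 1 and 2 and raised in hypoxia ketamine replicate 2. PAG6 signals were 263, 318 and 57.7 in these 3 and 11.8 to 22.2 in the other 12. Summed placental signals were 950.9, 1151 and 213.9 in these 3, 160.7 in hypoxia ketamine replicate 4 and 65.9 to 86.7 in the other 11. Of the 14 probes summed, 1 was well above background in hypoxia ketamine replicate 4, the array with the highest detection limit, against 8, 9 and 6 in these 3. Without these 3 arrays, a choice made after the data were seen, 2 probes were higher and 3 lower after adjustment and 803 rose and 1116 fell at the unadjusted threshold. None of the 24 named genes that passed adjustment under the naming rule passed it in that fit. Other calls lost in that fit were those of CDK2 (-0.23, adjusted p = 0.49), FOS (1.32, adjusted p = 0.485), IGFBP5 (-0.61, adjusted p = 0.345), ITGB2 (0.61, adjusted p = 0.493), MCL1 (0.69, adjusted p = 0.385) and TIMP1 (0.22, adjusted p = 0.474). The part of these transcripts in the results was not tested.

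**Figure D3:**
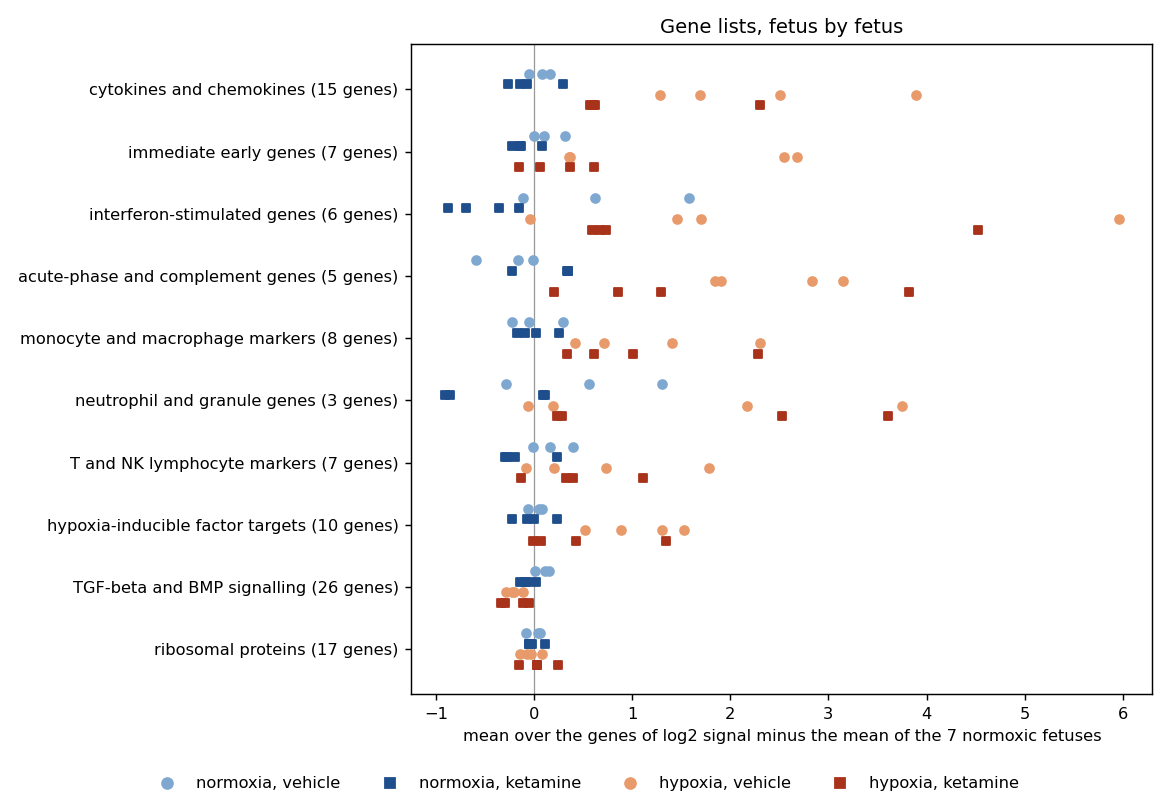
Mean over the genes of a list of the log2 signal minus the mean of the 7 normoxic fetuses, for 10 gene lists (number of measured genes in brackets), 1 point per fetus. Cytokines and monocyte and macrophage markers lie above the normoxic range in all 8 hypoxic fetuses, immediate early genes stand high in 2 of them, and TGF-beta and BMP genes and ribosomal proteins stay within 0.34 of 0. The first 2 of these lists hold genes well above background on few arrays: IL6 on 5, IL7 on 4 and ITGAM on 3.

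The hypoxia effect was also fitted within each drug arm. The 230 adjusted probes were chosen over both arms together, so that their agreement between the arms is largely fixed by the choice and is not counted here. Within the vehicle arm 2086 probes passed the unadjusted threshold (16.1%), of which 746 rose (5.77%) and 1340 fell (10.4%), and within the ketamine arm 479 rose (3.71%) and 642 fell (4.97%). Of the 876 named genes 87 rose (9.93%) and 63 fell (7.19%) with vehicle, and 39 rose (4.45%) and 52 fell (5.94%) with ketamine. Both arms shared 164 of the risen probes, which is 22% of the vehicle list and 34.2% of the ketamine list, and 286 of the fallen ones, 21.3% and 44.5%. The arms have no arrays in common, but their tests share 1 variance per probe, so their calls are not independent. Of the probes that rose with vehicle 3 fell with ketamine, and of those that fell with vehicle 4 rose with ketamine. Over all 12927 probes the effects of the arms correlated at r = 0.606, a description across probes that share arrays within each arm. After adjustment 2 probes passed in the vehicle arm (0.0155%), 1 higher (0.00774%) and 1 lower (0.00774%), both unnamed (A_70_P048566, 2.16, and A_70_P000721, -1.75), and none passed in the ketamine arm (0%), where limma gave 1121 (8.67%) at an unadjusted p of at most 0.05. Several lists held more called genes in the vehicle arm than in the ketamine arm, as did all named genes that rose, and these differences in count were not tested. In the list of toll-like receptor and NF-kB signalling 7 of 12 rose with vehicle and 1 with ketamine, with medians of 0.61 and 0.26, beside medians over all named genes of 0.04 and -0.02. Of the 15 cytokines and chemokines 8 rose with vehicle and 2 with ketamine (medians 1.34 and 1.27), and of the 7 immediate early genes 4 and 0 (1.39 and 0.21). Of the 10 targets of hypoxia-inducible factors 6 rose with vehicle and 1 with ketamine (0.55 and 0.09), and of the 26 TGF-beta and BMP genes 7 and 2 fell (-0.38 and -0.13). Of the 8 monocyte and macrophage markers 5 and 4 rose, with medians of 0.99 and 1.16. Without normoxia vehicle replicate 2 the vehicle arm had 1304 unadjusted calls in place of 2086.

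The difference between the arms was tested as an interaction, ketamine minus vehicle. At the unadjusted threshold it passed for 407 probes (3.15%), 265 of them higher with ketamine (2.05%) and 142 lower (1.1%), against 646 that the threshold passes by chance, and for 33 of 876 named genes (3.77%), and none passed adjustment. Of the 230 adjusted probes 10 passed the unadjusted threshold. The 5 named genes with the smallest p, each with an adjusted p of 0.989, were COPS7B (1.19), IL13RA1 (-0.81), SLC66A2 (-0.95), SLC9A3 (-1.0) and BCAT2 (0.69). COPS7B, a subunit of the COP9 signalosome, was well above background on 8 of 15 arrays, and with normexp its value was 0.68 (adjusted p = 0.78), while that of the sodium-proton exchanger SLC9A3 changed sign (0.28, adjusted p = 0.815) and that of SLC66A2 was -0.48 (adjusted p = 0.78). IL13RA1, a receptor chain for interleukins 4 and 13, was at 0.13 with vehicle and -0.68 with ketamine, where hypoxia ketamine replicates 1, 3 and 4 had signals of 304, 305 and 248 against 492 to 569 (median 536) in normoxia. Among the inflammatory genes the arms differed at the unadjusted threshold for IL1B, by -2.66 ± 1.06 (SE) and for NFKBIA, by -1.74 ± 0.74, whereas they did not pass it for CD86, by -0.27 ± 0.58, IGF1, by 0.47 ± 0.29 and ITGA4, by -0.49 ± 0.60. With SEs of this size a p above the threshold does not show that the arms responded alike. The count of interaction calls was 986 without hypoxia ketamine replicate 2, 239 without hypoxia ketamine replicate 3, 673 without hypoxia vehicle replicate 2 and likewise without replicate 3, and 247 without normoxia vehicle replicate 2.

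**Figure D4:**
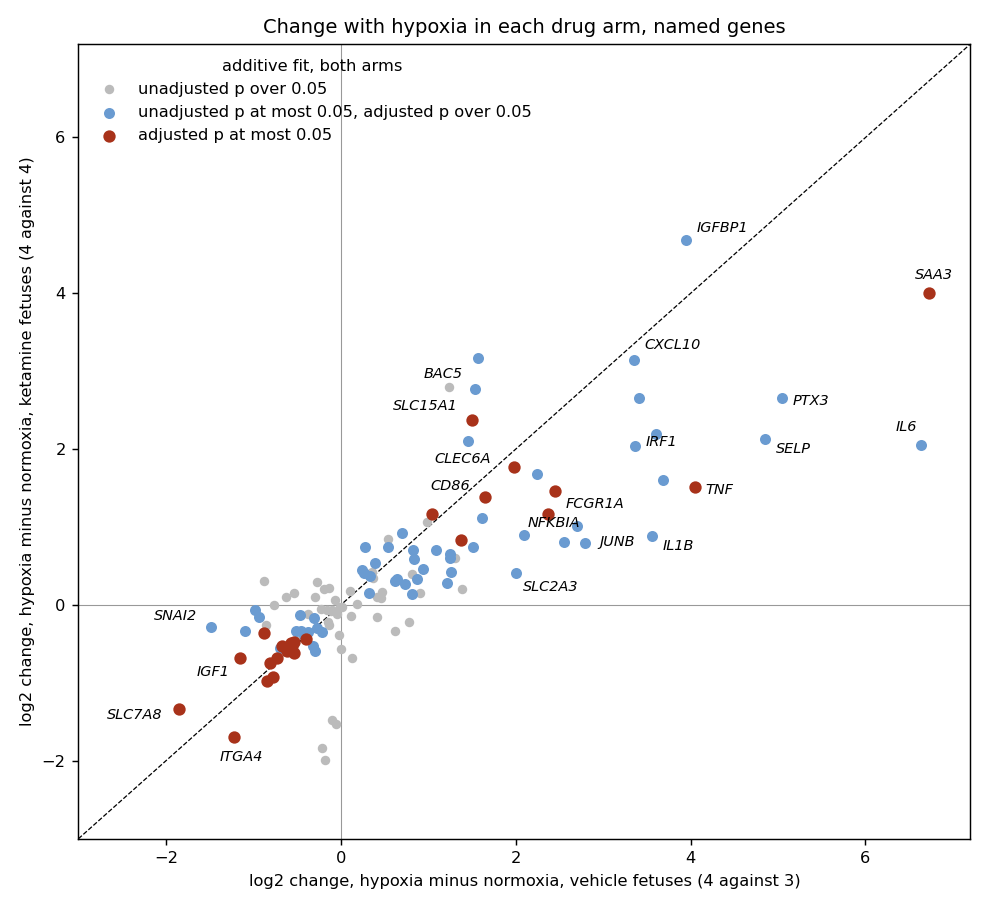
Log2 change with hypoxia in the vehicle fetuses (horizontal axis, 4 against 3) and in the ketamine fetuses (vertical axis, 4 against 4) for the named genes, coloured by the p of the fit over both arms, with the line of equal change dashed. Genes past adjustment were chosen over both arms together. TNF (4.05 and 1.52), SAA3 (6.73 and 4.00) and IL1B (3.56 and 0.89) lie below the line.

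The spread between fetuses was larger in hypoxia than in normoxia, a difference that was not tested, and more so in the higher than in the lower probes. The median within-group SD over probes was 0.286 in hypoxia and 0.209 in normoxia (log2), a ratio of 1.37. For the 69 higher probes the median SD among the 8 hypoxic fetuses was 0.73 against 0.30 among the 7 normoxic ones, and for the 161 lower probes 0.26 against 0.19. As a description, since these probes were chosen by this comparison, the median shift of the higher probes from the normoxic mean was 1.15, 1.21, 1.62 and 1.53 in hypoxia vehicle replicates 1 to 4 and 1.12, 2.01, 0.63 and 0.80 in hypoxia ketamine replicates 1 to 4. The lower probes shifted by -0.39, -0.43, -0.45 and -0.64 and by -0.66, -0.66, -0.43 and -0.62. Hypoxia ketamine replicates 3 and 4 were thus the smallest in the higher probes, while replicate 4 was among the largest in the lower ones. In hypoxia ketamine replicate 4, 50 of the 69 higher probes were beyond all normoxic arrays and 147 of the 161 lower ones. On the first principal component of all tested probes, which held 31.2% of the variance, the normoxic arrays spanned -28.3 to -21.8 and the hypoxic ones -13.7 to 71.8. Hypoxia vehicle replicate 4 (71.8) and hypoxia ketamine replicate 2 (52.0) were the farthest, and without both, an omission chosen after the data were seen, 25 probes were higher and 51 lower after adjustment, and the calls of FOS (0.99, adjusted p = 0.492), IGFBP5 (-0.47, adjusted p = 0.356) and ITGB2 (0.74, adjusted p = 0.307) were among those lost.

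**Figure D5:**
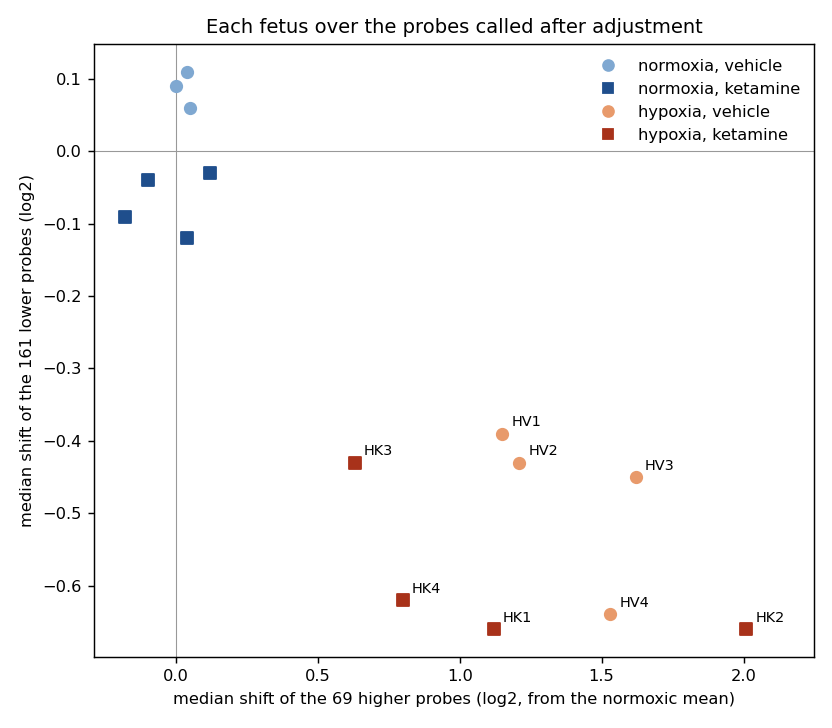
Median log2 shift from the normoxic mean of the 69 probes that were higher after adjustment (horizontal axis) and of the 161 that were lower (vertical axis), 1 point per fetus, with hypoxic fetuses labelled by drug and replicate. The probes were chosen by this comparison, so the gap between exposures is given by the choice, and the plot shows the spread among hypoxic fetuses, from 0.63 to 2.01 and from -0.66 to -0.39.

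Values within slide 1 (4 hypoxic and 4 normoxic arrays) and slide 2 (4 and 3) are given as a description, since the genes were chosen over the same 15 arrays and their direction on each slide is largely fixed by that choice. Slide 1 held both arrays farthest from the rest, all 3 with placental transcripts and hypoxia ketamine replicate 4. The part of these arrays in the differences between slides was not tested. On slides 1 and 2, IGF1 was at -0.81 and -1.03, ITGA4 was at -1.71 and -1.22 and CD86 was at 1.87 and 1.01. FCGR1A was at 2.42 and 1.41 and lost its call on slide 2, and TNF was at 3.31 and 1.97. On slide 2 alone 642 probes rose and 554 fell, of at most 12927 tested. From the lists of 8 monocyte and macrophage markers, 15 cytokines and chemokines and 12 toll-like receptor and NF-kB genes, 1, 3 and 2 rose there. From the list of 26 TGF-beta and BMP genes 2 fell on slide 2 alone. On slide 1 alone 3 of that list fell, beside 1036 of all probes.

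Most of the adjusted calls, 193 of 230 probes, have no gene name in the sources used here. The unnamed probe with the smallest p among those that rose, A_70_P064106, had signals of 15.8, 14.6 and 18.3 in the 3 normoxic vehicle fetuses, 16.4, 8.21, 8.48 and 16.3 in the 4 normoxic ketamine fetuses, 112, 146, 195 and 179 in the 4 hypoxic vehicle fetuses and 59.6, 229, 29.8 and 36.2 in the 4 hypoxic ketamine fetuses. All 8 hypoxic fetuses were above all 7 normoxic ones, and it rose 6.96-fold (log2 change 2.80 ± 0.37 (SE), adjusted p = 0.00836), or by 1.35 in the authors' value table and 1.1 with normexp. A_70_P009271, the next, had signals of 124 to 1761 (median 946) against 69.1 to 109 (median 99.2) and rose by 2.76 (SE 0.44, adjusted p = 0.00972). A_70_P057701 had the smallest p of all probes, with signals of 306 to 441 (median 344) in hypoxia and 487 to 631 (median 571) in normoxia, and fell 1.61-fold (log2 change -0.69 ± 0.08 (SE), adjusted p = 0.00315). A_70_P004386 fell by 0.65 (SE 0.08, adjusted p = 0.0062), from 403 to 503 (median 445) to 242 to 341 (median 283). The lower pair spread far less between fetuses than the higher pair, and neither pair overlapped between exposures.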

How the data were processed

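Kidney cortex RNA of 15 fetuses was measured on 15 one-colour arrays. Per the file headers, Agilent Feature Extraction 10.1.1.1 gave the deposited intensity of each spot after background subtraction and detrending. The authors' deposited table of log2 values for 11705 probes, which states no normalisation, served as an alternative; 12 of its 15 columns resembled another array of their own group best (r 0.909 to 0.976), so it was used by group. The submitters' processing notes name limma without a version.

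Control spots were left out, spots of a probe averaged, each array's log2 75th percentile subtracted, and probes well above background on at least 3 arrays fitted in limma 3.58.1 (R 4.3.3) on exposure with drug as covariate. Arm effects and their difference came from a model of the 4 group means. The code was tested on simulated data. The number of arrays limits precision.

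Names came from the arrays, 320 probes through the RefSeq table and 187 through a table compiled by hand. Named are the 5 marker genes, the 15 largest changes in each direction (those past adjustment first), the 4 smallest p-values of each list, 5 interactions and 2 unnamed probes per direction. The members, lists and rules were chosen with earlier results of these data known.

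Alternatives were normexp background (offset 50), quantile scaling, other filters, array weights, a slide or replicate block, single slides, the authors' table, and leaving out arrays.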

Additional observations from a re-analysis of the deposited data

Results flagged for a closer look

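Of 266 groups of values examined (133 genes and probes, 8 hypoxic and 7 normoxic arrays each) 18, or 6.77%, held 1 array whose gap to the next, as a share of the group's range, passed Dixon's 95% critical value (0.526 for 8 arrays, 0.568 for 7). Chance alone gives about 1 in 20 groups. Among normoxic arrays the highest was normoxia ketamine replicate 4 for TIMP1 (a share of 0.887), ICAM1 (0.689) and CDK4 (0.656), normoxia ketamine replicate 2 for ITGA4 (0.755) and normoxia ketamine replicate 1 for IL6 (0.579), where no normoxic array was well above background. It was normoxia vehicle replicate 2 for TLR3 (0.635) and ARNT (0.632), and normoxia vehicle replicate 3 for COX5A (0.598). The lowest was normoxia ketamine replicate 4 for GRM5 (0.812) and normoxia vehicle replicate 2 for CCND3 (0.586).

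Among hypoxic arrays hypoxia ketamine replicate 4 was lowest for SERPINA14 (0.762) and AGGF1 (0.683), hypoxia vehicle replicate 3 for TXN (0.608), and hypoxia vehicle replicate 4 for CDK2 (0.567) and ATP5MC2 (0.530). Hypoxia ketamine replicate 2 was highest for the placental transcripts PAG6 (0.651), LOC443319 (0.580) and PAG9 (0.572).

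Among the 133 genes and probes examined here, the hypoxia effect differed between the drug arms for 15, at an unadjusted p of at most 0.05. None passed Benjamini-Hochberg adjustment in limma. Some of the 133 were picked for a small p in this test, so the 15 do not give a share of all genes. Over all 876 named genes 33 passed the unadjusted threshold (3.77%). The log2 effect with ketamine minus that with vehicle was -2.66 for IL1B, -2.53 for TNF, -1.74 for NFKBIA, -1.59 for SLC2A3, -1.0 for SLC9A3, -0.95 for SLC66A2, -0.81 for IL13RA1 and -0.67 for CCND3. It was 1.19 for COPS7B and for SNAI2, 0.91 for GRIA4, 0.78 for CDKN1B, 0.76 for FGF10, 0.69 for BCAT2 and 0.34 for SMAD2.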

How the results depend on the processing

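All 230 adjusted probes kept their direction under every alternative that tested them, except 1 of 230 with normexp, where 167 kept an unadjusted p of at most 0.05; they were chosen on these same arrays, so this is no separate support. The cause of the differences below was not tested. Array weights gave 220 higher and 367 lower probes after adjustment and 1693 unadjusted calls in the ketamine arm, and no filter gave 44 higher. Normexp gave 19 and 24, with 871 lower at the unadjusted threshold, 1255 calls in the vehicle arm, 198 interactions, 5 TGF-beta and BMP genes that fell, GRIA4 at 0.03 and the SLC9A3 interaction at 0.28. With probes well above background on all arrays, which tests fewer genes, 6 cytokines rose. Slide 1 alone, with fewer arrays, gave 6 higher and 2 lower, 1198 vehicle calls, 600 ketamine calls, 228 interactions and 3 TGF-beta and BMP genes that fell. Slide 2 alone gave 0 and 0 in limma after adjustment, 642 and 554 unadjusted, 664 vehicle calls, and list counts of 1 monocyte marker, 3 cytokines, 2 toll-like receptor and NF-kB genes and 2 hypoxia-inducible factor targets that rose and 2 TGF-beta and BMP genes and 1 matrix gene that fell. Without the 2 arrays apart it was 25 and 51, 941 interactions and 3 toll-like receptor and NF-kB genes. Without the 3 arrays with placental transcripts it was 2 and 3, 714 interactions and 3 of those genes. These omissions were chosen after the data were seen.

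Leaving out 1 array at a time gave 12 to 168 higher and 41 to 312 lower probes after adjustment, 843 to 1086 and 1249 to 1762 unadjusted, 1304 to 2453 vehicle calls, 832 to 1341 ketamine calls and 239 to 986 interactions. Risen genes numbered 4 to 6 for monocyte markers, 8 to 10 for cytokines, 4 to 7 for toll-like receptors and NF-kB, and 4 to 5 for hypoxia-inducible factor targets, and fallen ones 6 to 10 for TGF-beta and BMP and 2 to 5 for matrix. Of the 85 called genes and probes that the naming rule picked 73 lost no call in these fits. Called genes named outside the rule, such as TGFBR1, GHR and MMP2, are not among the 85.

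Groups share replicate numbers, but 21 same-numbered pairs correlated at -0.293 to 0.372 (median 0.0379) in their deviations from the group means, with 3 pairs over 0.1, so the numbers were not taken as a pairing. With the replicate number as a block 42 probes were higher and 89 lower after adjustment.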
